A study of Mus musculus with 12 samples.

Results

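The response of wild-type mouse embryonic stem cells (ES cells) to 4 days without LIF was read from RNA-seq counts of whole cell populations. The comparison uses 4 of the 12 libraries of the series, chosen by their labels. These are 2 of undifferentiated wild-type cells (WT day 0, the control) and 2 of embryoid bodies that the same line had formed 4 days after LIF was removed (WT day 4). All 12 libraries are labelled as the line E14Tg2a.IV, and the other 8 come from a Smad2 and Smad3 double knockout (S2/3DKO) and a Smad4 knockout (S4KO) at the same days, 2 in each group. No agent other than the removal of LIF is named, and no culture medium. The RNA had an integrity number above 9.5, and 500 ng of it went into each library. The labels name 1 wild-type line and call each sample duplicated without saying whether the duplicates were grown apart, so what the p-values measure is spread among libraries that may in part be technical.

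LIF is a cytokine that keeps mouse ES cells self-renewing through its receptor, JAK kinases and the transcription factor STAT3. When LIF is withdrawn and the cells are left to aggregate, they form embryoid bodies. In these the naive pluripotency programme, that of the preimplantation epiblast, gives way to states like the postimplantation epiblast, and then to primitive streak, mesoderm and endoderm, while extraembryonic endoderm forms at the surface. Embryoid bodies therefore hold several cell types at once.

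The 4 libraries held between 49829720 and 53604809 counts. Levels are given as CPM, counts per 1000000 of the library size scaled by TMM, with the value of each library in the order of its replicate number. A gene is said to have risen or fallen where its adjusted p was below 0.05 in edgeR's quasi-likelihood test with Benjamini-Hochberg adjustment over 18693 genes, with n = 2 libraries in each group throughout. Differences are log2 fold changes of day 4 against day 0, with their standard errors. Where values are said not to overlap between the days, this is description and adds no support to the call. Genes called with a large change are nearly bound to show it, and the share of all genes without overlap is not given.

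The WT day 0 libraries stood apart from the other 10 in how level depended on exon length, so the gene lists are given with and without a correction for that trend. In each library, genes were compared with their own mean over the 12 libraries, and the median deviation of genes in the longest decile was set against that of the shortest. This difference was -1.04 and -0.75 on the log2 scale in the WT day 0 libraries and 0.55 and 0.31 in the WT day 4 libraries, and it lay between -0.28 and 0.55 in the 10 libraries other than WT day 0. Ribosomal-protein transcripts, which are short, made up 15.2% of the counts in WT day 0 replicate 1, 11.1% in replicate 2 and from 5.02% to 7.93% in the other 10 libraries. The libraries differed by GC content too, the highest decile of GC content minus the lowest being 0.71 and 0.78 in WT day 0 and -1.11 and 0.36 in WT day 4, so that the WT day 4 replicates differed from each other. Results are therefore also given length and GC corrected, that is, from the same test after each library's trends with exon length and GC content had been removed. The trends are taken over all genes, so the correction also removes any part of the response that itself follows length or GC content, and that part was not tested. Genes named below as risen or fallen in WT were also called in the same direction after correction, unless the text says otherwise.

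**Figure D1:**
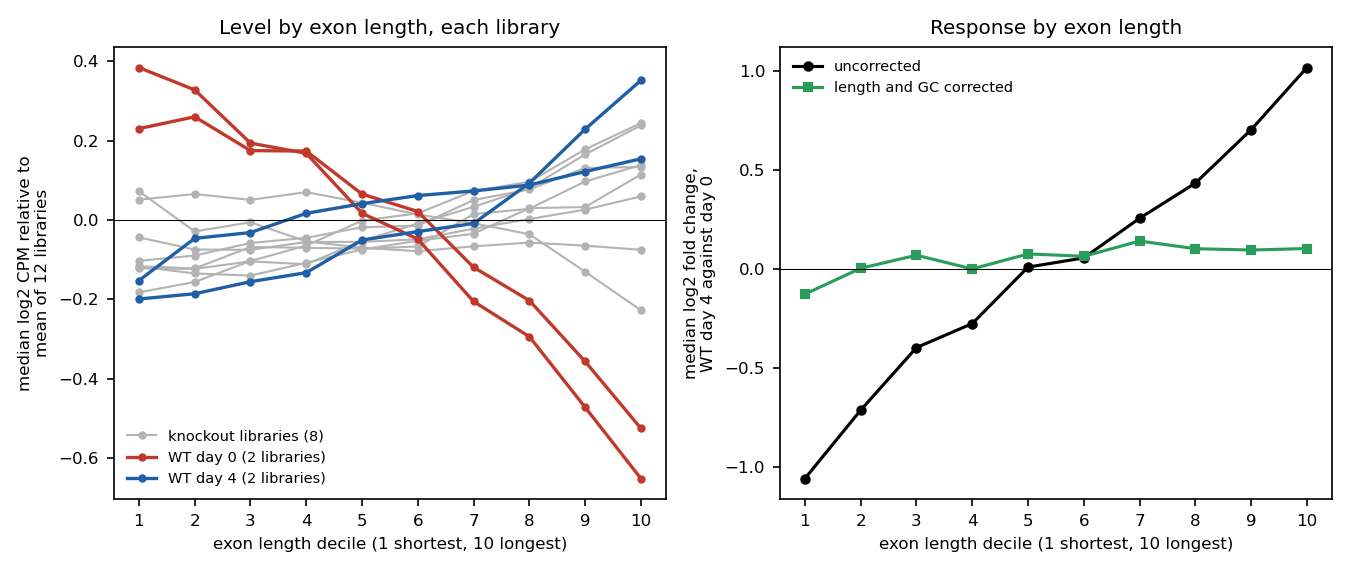
Left, the median log2 CPM of each library relative to the mean of the 12 libraries, by deciles of genes ordered by exon length, with WT day 0 in red, WT day 4 in blue and the 8 knockout libraries in grey. Right, the median log2 fold change of WT day 4 against day 0 in the same deciles, which ran from -1.06 to 1.02 uncorrected (black) and from -0.13 to 0.14 after correction (green).

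Of the 18693 genes tested, 8157 (43.6%) differed between WT day 4 and day 0, 4445 of them higher (23.8%) and 3712 lower (19.9%). After correction 7942 of 18682 differed (42.5%), 4149 higher (22.2%) and 3793 lower (20.3%). The median log2 fold change of all genes was 0.08 uncorrected and 0.06 corrected, and these shares and medians are the background for the gene lists that follow. 5800 genes were called in the same direction in both fits, which is 71.1% of the uncorrected calls, 20 were called in opposite directions and 2122 were called in the corrected fit alone. In the shortest decile of genes (exons of 123 to 1273 bases) 6.36% rose and 36.7% fell, against 54.4% and 3.69% of the longest decile (9190 to 123179 bases). After correction the share that rose lay between 14.5% and 27.3% in every decile. The share of all calls that were higher was 54.5% uncorrected and 52.2% corrected. It was 40.4% when the correction kept the original scaling of the libraries, which moved the median of all genes by -0.19. With a WT day 0 library left out the uncorrected count was 4080 (replicate 1) or 5456 (replicate 2), and with a WT day 4 library left out 5475 (replicate 1) or 8042 (replicate 2). In 19 fits that varied the scaling, the filter, the correction and the libraries, 2265 genes kept their call and direction, 1001 of them higher and 1264 lower.

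The correction changed the number of large rises little and that of large drops more. A difference of at least 2 on the log2 scale was found for 1602 genes that rose and 1233 that fell, and for 1503 and 827 after correction. A difference of at least 4 was found for 478 and 283, and for 485 and 197 after correction. These counts were not made for the correction that kept the original scaling of the libraries.

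The genes with the largest changes that both fits called, with at least 50 CPM in the higher group, included a homeobox gene that was off at day 0 and a keratin that was nearly off at day 4. Their promoters are printed here as examples, with those of the next rise and the next drop that had a single entry in the promoter table. They do not stand for strongly changed genes as a class. Each window runs from 250 bases before the annotated start to 50 bases after it (RefSeq, build GRCm38.p6), 5′ to 3′ on the gene's own strand. Capitals mark matches on either strand to TATAAA (the TATA box), to CCAAT (the CCAAT box), to GGGCGG (the GC box) or to CTTTGAT (a core bound by TCF and LEF factors). The windows are chr11:84525485-84525784 (minus strand) for Lhx1, chr2:13491827-13492126 (minus) for Cubn, chr11:100269902-100270201 (minus) for Krt42 and chr12:85473640-85473939 (plus) for Fos.
Lhx1: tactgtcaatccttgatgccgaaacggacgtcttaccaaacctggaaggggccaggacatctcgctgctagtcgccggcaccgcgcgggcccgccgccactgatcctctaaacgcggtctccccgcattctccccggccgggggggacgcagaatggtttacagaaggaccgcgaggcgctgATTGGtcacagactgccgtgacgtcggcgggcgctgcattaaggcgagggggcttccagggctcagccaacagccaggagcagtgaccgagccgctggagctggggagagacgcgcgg
Cubn: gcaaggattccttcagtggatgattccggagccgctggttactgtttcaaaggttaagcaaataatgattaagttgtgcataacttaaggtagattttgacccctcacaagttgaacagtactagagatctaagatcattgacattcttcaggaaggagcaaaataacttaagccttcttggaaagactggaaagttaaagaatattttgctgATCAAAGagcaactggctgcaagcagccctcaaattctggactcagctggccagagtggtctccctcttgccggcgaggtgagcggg
Krt42: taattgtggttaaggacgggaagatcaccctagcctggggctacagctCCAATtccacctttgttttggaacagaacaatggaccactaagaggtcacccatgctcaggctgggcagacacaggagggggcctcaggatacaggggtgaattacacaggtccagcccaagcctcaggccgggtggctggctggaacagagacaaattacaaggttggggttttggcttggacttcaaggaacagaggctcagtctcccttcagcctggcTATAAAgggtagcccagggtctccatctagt
Fos: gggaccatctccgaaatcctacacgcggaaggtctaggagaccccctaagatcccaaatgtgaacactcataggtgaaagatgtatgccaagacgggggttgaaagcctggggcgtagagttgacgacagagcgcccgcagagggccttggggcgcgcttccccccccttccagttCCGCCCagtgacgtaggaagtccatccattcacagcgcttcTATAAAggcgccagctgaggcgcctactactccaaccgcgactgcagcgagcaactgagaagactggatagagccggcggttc
The Lhx1 window held 31 CpG dinucleotides, an observed to expected ratio of 0.96, and 1 match, to CCAAT. The Krt42 window held 2 CpG dinucleotides, a ratio of 0.09, with a match each to TATAAA and CCAAT. Its TATAAA match lay after the RefSeq start, while that of Fos lay before the start. The GENCODE annotation starts Krt42 at 100269871, so the whole window and its TATAAA match lie before that start. The Cubn window also lies wholly before the GENCODE start of Cubn (13491813). Cubn had 5 CpG dinucleotides (ratio 0.34) and a match to CTTTGAT, and Fos had 20 (ratio 0.77) and a match each to TATAAA and GGGCGG. Of all 22856 windows of this length, 38.2% held CCAAT, 35.2% GGGCGG and 14.8% TATAAA, while CTTTGAT was rarer, in 3.76%.

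Promoters of the genes with the largest changes were poorer in CpG than those of genes called in neither fit. Of the 10957 tested genes matched to 1 window, 257 rose by at least 4 on the log2 scale in both fits, and 38.5% of these had a CpG ratio below 0.35, with a median of 0.49. The share was 62.8% of the 145 genes that fell by at least 4, with a median of 0.27. It was 24.7% of the 4778 genes called in neither fit (median 0.67), 16% of the 1807 that rose in both fits by any amount and 21.2% of the 1630 that fell in both. Of all 22856 windows, with genes not tested included, 48.1% lay below 0.35 (median 0.37), a larger share than among the large rises. These shares are a description with no test, and CpG content is itself tied to the GC content that the correction removes.

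Lhx1, a homeobox gene of the organizer and head mesoderm, had no counts in either WT day 0 library and 45.4 and 55.8 CPM at day 4 (ENSMUSG00000018698, chromosome 11, 84518284 to 84525535, build mm10). It was at least 1480.0-fold higher against a floor of 3 counts over the 2 day 0 libraries (adjusted p = 0.000114). Cubn, which encodes the endocytic receptor cubilin, had 0.527 and 0.757 CPM at day 0 and 372 and 296 CPM at day 4 (9.01 ± 0.71, adjusted p = 5.53e-05). Apob, the main structural protein of lipoproteins, had 0.312 and 0.497 CPM at day 0 and 219 and 146 CPM at day 4 (8.80 ± 0.86). In these 3 genes the day 4 libraries lay far above the day 0 libraries with no overlap, as the rule that chose the 10 largest rises required. Among those 7, Cyp26a1 encodes an enzyme that breaks down retinoic acid and had 0.288 and 0.389 CPM at day 0 and 51.1 and 57.5 CPM at day 4. Dab2, an adaptor that works with cubilin in endocytosis, had 1.94 and 2.98 CPM at day 0 and 270.1 and 226 CPM at day 4. T (brachyury), Fgf5 and Mixl1, genes of the epiblast and streak, rose by 8.45, 7.47 and 6.90. The last of the 10 were both on the X chromosome, Dgkk, a diacylglycerol kinase (6.38), and Amot, the junction protein angiomotin (6.32). After correction the differences of the 9 genes with day 0 counts ran from 5.58 for Amot to 8.96 for T, with 7.97 for Cubn and 7.62 for Apob, and all 10 calls held in each alternative tried.

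The 10 largest drops were led by Krt42, a type I keratin, with 59.7 and 43.1 CPM at day 0 and 0.240 and 0.690 CPM at day 4 (-6.79 ± 0.76, adjusted p = 0.000203; ENSMUSG00000053654, chromosome 11, 100262882 to 100269871). Fos, an immediate early transcription factor, had 80.6 and 106 CPM at day 0 and 2.82 and 3.87 CPM at day 4 (-4.80 ± 0.94). Nr0b1 (Dax1), a nuclear receptor that belongs to the naive pluripotency network, had 119 and 114 CPM at day 0 and 3.48 and 5.86 CPM at day 4 (-4.64 ± 0.69). The same rule required both day 4 libraries to lie below both day 0 libraries in each of the 10. The others were Mymx, a small membrane protein of muscle cell fusion (-5.19), the cross-linking enzyme gene Tgm1 (-4.74), the septin gene Sept1 (-4.61), Dpys, an enzyme of pyrimidine breakdown (-4.47), the stress-responsive Nupr1 (-4.46), the dehydrogenase gene Hsd17b14 (-4.44) and Cltb, a clathrin light chain (-4.37). Their exon lengths ran from 1027 bases (Mymx) to 4868 bases (Cltb). After correction the differences were -5.75 for Krt42, -3.97 for Mymx, -4.33 for Fos and -3.75 for Nr0b1, and all 10 calls held in each alternative tried.

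**Figure D2:**
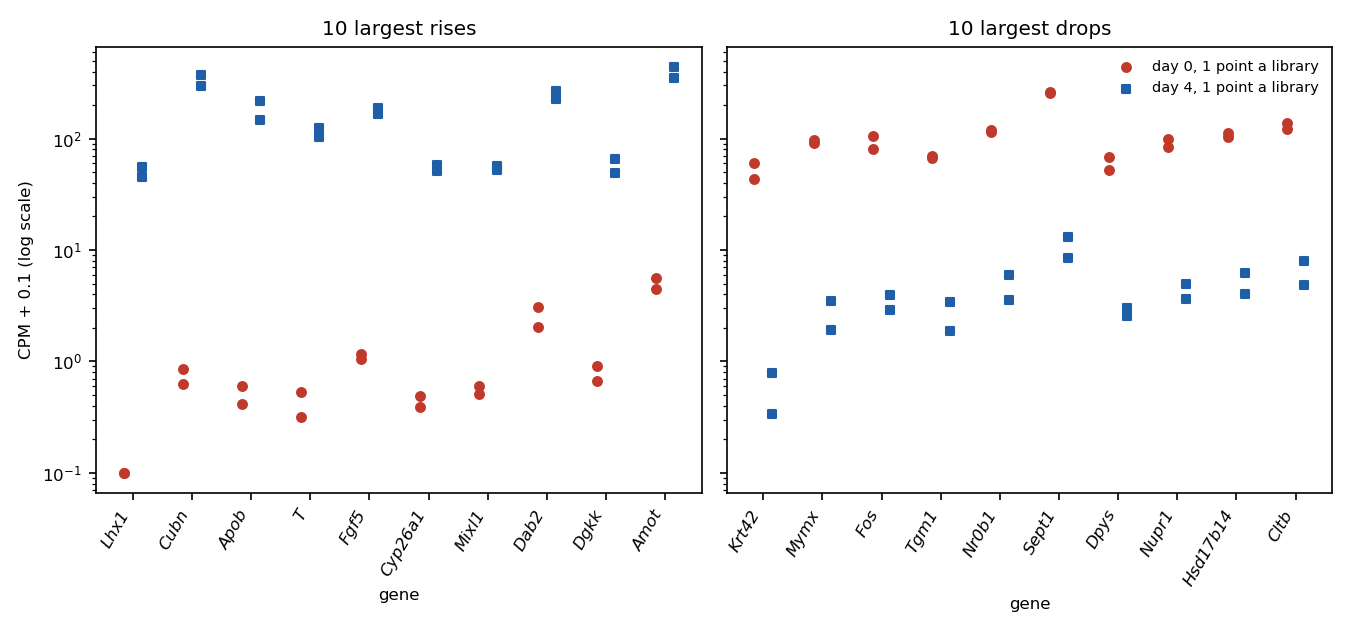
CPM plus 0.1 on a log axis for the 10 largest rises (left) and the 10 largest drops (right) that both fits called, 1 point for each library, day 0 in red circles and day 4 in blue squares. The rule that chose these 20 genes required the day 0 and day 4 points not to overlap, and Lhx1 lies at 0 CPM in both day 0 libraries.

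On the CPM scale itself, on which abundant transcripts weigh most, the 5 largest gains among genes called in the same direction with and without correction, and free of overlap between the days, were those of mt-Nd1, Dnmt3b, Ddx3x, mt-Nd4 and Srrm2, and the 5 largest losses were those of Rpl8, Rpl13a, Dppa5a, Rpl4 and Rpsa. Dnmt3b, a de novo DNA methyltransferase, had 225 and 261 CPM at day 0 and 1397 and 1557 CPM at day 4. Dppa5a, a KH-domain protein of pluripotent cells, had 4031 and 2636 CPM at day 0 and 442 and 389 CPM at day 4. Rpl8, a protein of the large ribosomal subunit, had 5869.8 and 4705 CPM at day 0 and 724 and 2243 CPM at day 4. The 4 losses other than that of Dppa5a were all from ribosomal-protein genes, and 35.4% of the exon length of Rpl13a is shared with other annotated genes, small nucleolar RNA genes among them. The call of mt-Nd1 was lost uncorrected without either day 0 replicate or day 4 replicate 1. That of mt-Nd4 was lost uncorrected without day 0 replicate 1 or day 4 replicate 1, and in the fit of only the 4 WT libraries. With the correction that kept the original scaling, both calls were lost without day 0 replicate 1 or day 4 replicate 2. Losses of calls given below are those of uncorrected fits with 1 library left out.

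Genes of naive pluripotency fell together. Of 20 members tested, 0 rose and 20 fell, with a median log2 fold change of -2.78. After correction 0 rose and 20 fell, with a median of -2.44, and 16 kept their call in all 19 fits. Tcl1, a cofactor of the kinase AKT, had 128 and 125 CPM at day 0 and 8.70 and 10.9 CPM at day 4 (-3.69 ± 0.50, adjusted p = 0.000427). Spp1, the secreted protein osteopontin, had 421 and 439 CPM at day 0 and 40.1 and 33.5 CPM at day 4 (-3.55 ± 0.48). Esrrb, an orphan nuclear receptor that helps to hold the naive state, had 525 and 638 CPM at day 0 and 64.1 and 92.5 CPM at day 4 (-2.89 ± 0.49). The day 0 and day 4 values did not overlap in any of these 3. Zfp42 (Rex1), a zinc finger gene much used as a naive marker, fell from 444 and 488 to 62.0 and 59.1 CPM, and the naive factor genes Tfcp2l1 (-1.83) and Prdm14 (-2.49) fell too. Klf4, a Krüppel-like factor, had a difference of -4.17 (-3.71 after correction). Nanog, a homeobox factor at the centre of the network, had the smallest drop of the 20, with 479.7 and 495 CPM at day 0 and 290.0 and 245 CPM at day 4 (-0.87 ± 0.24, adjusted p = 0.0142). The call of Nanog was lost without either day 0 replicate or day 4 replicate 2 (adjusted p from 0.0621 to 0.0804). In these bulk samples, here and in what follows, fewer cells of a type and less RNA per cell cannot be told apart. 

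Factors that naive and later pluripotent cells share fell less evenly. Of 14 members tested, 1 rose and 7 fell (median -1.17), and 2 rose and 7 fell after correction (median -0.69). Pou5f1 (Oct4), which is required in all pluripotent cells, had 2164 and 2169.9 CPM at day 0 and 430.3 and 906 CPM at day 4 (-1.70 ± 0.33, adjusted p = 0.00225), and a difference of -0.89 after correction. Sox2, its partner on DNA, had 466 and 533 CPM at day 0 and 187 and 179 CPM at day 4 (-1.45 ± 0.31). Both were still transcribed at day 4, below both day 0 libraries. Dnmt3l, a cofactor of the de novo methyltransferases, fell from 459 and 416 to 75.5 and 102 CPM, and the paired genes Dppa2 (-1.48) and Dppa4 (-1.51) fell too. Zfp281, a zinc finger factor tied to the exit from the naive state, rose by 1.37. Sall4 (-0.21) and Lin28a (0.86) did not pass, and Utf1 (-1.62) did not either, with 40.9 and 268 CPM in the day 4 replicates. The call of Dppa2 was lost without any 1 of the 4 libraries (adjusted p from 0.06 to 0.111). After correction Lin28a was called higher (0.92). The count of shared pluripotency genes that fell was 4 without day 0 replicate 1.

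Some genes of the LIF pathway fell, and those of its receptor and of STAT3 passed the test after correction alone. Of 15 genes of the pathway and its STAT3 targets tested, 1 rose and 7 fell (median log2 fold change -0.92), and 0 and 9 did after correction (median -0.98). Socs3, a feedback inhibitor of the receptor and a direct STAT3 target, had 132 and 169 CPM at day 0 and 6.93 and 14.7 CPM at day 4 (-3.80 ± 0.42, adjusted p = 0.000203). Bcl3, a nuclear cofactor, fell from 30.1 and 38.8 to 1.59 and 4.48 CPM, and Egr1, an immediate early gene that also answers to ERK, fell from 140.5 and 161 to 7.32 and 11.8 CPM. Fos, described above, is on this list as well. The receptor genes Lifr (-0.39) and Il6st (-0.01) and Stat3 itself (-0.54) did not pass in the uncorrected fit. After correction all 3 were called lower (-1.42, -0.86 and -0.98). The kinase gene Jak1 was called higher (0.77) but not after correction (0.20). These 4 genes have exon lengths from 7227 bases (Jak1) to 11099 bases (Il6st), and their calls depend on the correction. The call of Egr1 was lost without either day 4 replicate (adjusted p from 0.0507 to 0.0923). The call of Jak1 was lost without day 0 replicate 1 or day 4 replicate 1 (adjusted p from 0.113 to 0.13). The count of LIF pathway genes that rose was 0 without day 0 replicate 1 or day 4 replicate 1, and that of those that fell was 4 without day 4 replicate 1.

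Genes of the formative and primed epiblast, the states that follow the naive one, mostly rose. Of 18 tested, 12 rose and 2 fell (median log2 fold change 1.94), and 11 and 2 did after correction (median 2.08). Sall2, a zinc finger gene, had 5.34 and 5.90 CPM at day 0 and 136 and 167 CPM at day 4 (4.75 ± 0.67). Otx2, the homeobox factor that directs enhancers of the formative state, had 47.6 and 57.5 CPM at day 0 and 275 and 237 CPM at day 4 (2.29 ± 0.41). The POU factor gene Pou3f1 (Oct6) had 8.89 and 11.5 CPM at day 0 and 34.6 and 66.6 CPM at day 4 (2.31 ± 0.70). All 3 were separated between the days. Both de novo methyltransferase genes rose, Dnmt3b by 2.60 ± 0.50 and Dnmt3a by 1.14 ± 0.21, the second reduced to 0.43 after correction. Tcf15, a bHLH gene used as a marker of cells leaving the naive state, went the other way, from 33.1 and 31 to 2.32 and 6.11 CPM (-2.93 ± 0.56), as did the ETS factor gene Etv4 (-1.71). Nodal (-0.52), Etv5 (-0.16) and Foxd3 (-0.55) did not pass. The call of Pou3f1 was lost without either day 0 replicate or day 4 replicate 2 (adjusted p from 0.0743 to 0.126). 

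Most primitive streak genes tested rose. Of 16 tested, 11 rose and 0 fell (median log2 fold change 4.49), and 13 and 0 did after correction (median 5.06). Eomes, a T-box gene that acts in the streak and in trophoblast, had 3.95 and 4.24 CPM at day 0 and 249 and 241 CPM at day 4 (5.90 ± 0.30, adjusted p = 6.79e-06). Wnt3, the ligand that starts the streak, had 0.312 and 0.822 CPM at day 0 and 10.3 and 17.6 CPM at day 4 (4.61 ± 0.62). Fgf8, which cells need to leave the streak, had 0.383 and 0.865 CPM at day 0 and 20.7 and 72.2 CPM at day 4 (6.20 ± 0.75). The homeobox gene Evx1 had no counts at day 0 and 5.90 and 12.4 CPM at day 4, and was at least 267-fold higher. Gsc, a marker of the anterior streak, rose from 1.03 and 1.10 to 2.97 and 16.6 CPM and the Wnt target Sp5 from 1.08 and 1.62 to 10.3 and 28.4 CPM, both with wide day 4 replicates. Genes of the next step stayed low: Mesp1 had 0.288 and 0.368 CPM at day 0 and 1.33 and 3.20 CPM at day 4 (2.78 ± 1.05, adjusted p = 0.0578), Tbx6 and Mesp2 did not pass (-0.53 and -0.26), and Msgn1 was too low to test. Mesp1 was called higher in the corrected fit. The call of Gsc was lost without day 4 replicate 2 (adjusted p = 0.0621). The call of Sp5 was lost without day 0 replicate 1 (adjusted p = 0.0603). 

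Mesoderm genes gave a mixed result. Of 17 tested, 6 rose and 2 fell (median log2 fold change 1.28), and 8 and 1 did after correction (median 1.66). Pdgfra, a receptor of mesoderm and of primitive endoderm, had 0.240 and 0.562 CPM at day 0 and 34.9 and 28.3 CPM at day 4 (6.28 ± 0.46). Gata4, a zinc finger factor of endoderm and heart, had 1.03 and 1.08 CPM at day 0 and 28.7 and 39.9 CPM at day 4 (5.02 ± 0.33). Kdr, the VEGF receptor of blood and vessel precursors, rose from 0.264 and 0.303 to 4.77 and 5.19 CPM (4.12). Pdgfra and Gata4 are also expressed in extraembryonic endoderm. The zinc finger gene Snai1 rose from 1.68 and 1.90 to 2.80 and 10.7 CPM, with its day 4 replicates far apart, and Bmp4, a ligand of posterior and extraembryonic tissue, fell from 16.1 and 21.2 to 4.15 and 6.19 CPM. The call of Snai1 was lost without either day 0 replicate or day 4 replicate 2 (adjusted p from 0.147 to 0.46). The call of Bmp4 was lost without day 0 replicate 2 or day 4 replicate 1 (adjusted p from 0.0725 to 0.0836). The drop of Bmp4 was not called after correction (-1.31). Hand1, Isl1, Foxc1, Foxc2 and Meox1, genes of lateral, cardiac and paraxial mesoderm, did not pass and stayed below 2 CPM in the 4 libraries. After correction Hand1 was called higher (2.36). The count of mesoderm genes that fell was 1 without day 0 replicate 2 or day 4 replicate 1.

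Most endoderm genes tested rose. Of 12 genes of definitive endoderm tested, 8 rose and 0 fell (median log2 fold change 3.08), and 9 and 0 did after correction (median 3.82). Foxa2, a forkhead factor of endoderm and node, had no counts at day 0 and 30.5 and 45.2 CPM at day 4, and was at least 1106-fold higher. Cer1, a secreted inhibitor of Nodal, BMP and Wnt, had none at day 0 and 30.2 and 28.6 CPM at day 4, and was at least 862-fold higher. Sox17, an HMG-box factor, had 0.0719 and 0.0649 CPM at day 0 and 5.48 and 14.3 CPM at day 4 (7.13 ± 0.96). These genes are shared between the definitive endoderm of the embryo and its extraembryonic endoderm. Gata6, of primitive endoderm, rose by 5.61 ± 0.59, Foxa1 by 4.72 ± 0.56 and the chemokine receptor gene Cxcr4 by 2.97 ± 0.43. Hhex (0.25) and Pyy (-0.03), which are more restricted to the anterior definitive or visceral endoderm and to early definitive endoderm, did not pass. 

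Visceral and parietal endoderm, the extraembryonic layers that nourish the early embryo, had the largest share of risen members among the 50 lists. Of 25 genes tested, 21 rose and 0 fell (median log2 fold change 4.01), and 23 and 0 did after correction (median 4.00). 17 of them kept their call in all 19 fits. The endocytic receptors Cubn and Lrp2 (megalin), their adaptor Dab2 and their anchor Amn (amnionless) all rose. Lrp2 had 33.6 and 36.9 CPM at day 0 and 592 and 546 CPM at day 4 (4.01 ± 0.59, corrected 3.11). Amn had 1.75 and 1.97 CPM at day 0 and 4.72 and 27.7 CPM at day 4 (3.12 ± 0.86), with day 4 replicates far apart. The transcription factor gene Hnf4a rose from 3.12 and 3.39 to 14 and 16 CPM. Among secreted serum proteins, Afp had 0 and 0.0649 CPM at day 0 and 52.2 and 42.9 CPM at day 4, and was 1398-fold higher (95% counting interval 478 to 6777). Ttr (transthyretin) had no counts at day 0 and 13.6 and 22.4 CPM at day 4, and was at least 525-fold higher. Apoa4 was at least 445-fold higher, but 69.8% of its exon length is shared with other annotated genes. Apoe (-1.07), Rhox5 (-0.78), Rbp4 (0.71) and Sparc (0.64) did not pass. The call of Amn was lost without either day 0 replicate or day 4 replicate 2 (adjusted p from 0.0717 to 0.188). After correction Rbp4 and Sparc were called higher (1.83 and 0.88). The count of visceral and parietal endoderm genes that fell was 1 without day 4 replicate 2.

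Apolipoprotein and serum protein genes as a group were split. Of 24 listed, 19 could be tested, and 8 rose and 2 fell (11 and 2 after correction). The median log2 fold change was 1.67 as fitted. It was 0.71 with genes set to their bounds where either day had 0 counts and the other day more than 3. Mttp, which loads lipid onto apolipoprotein B, had 6.69 and 7.94 CPM at day 0 and 62.9 and 47.7 CPM at day 4 (2.92 ± 0.32), and Apoa1 had 0.383 and 0.541 CPM at day 0 and 7.74 and 17 CPM at day 4 (4.73 ± 0.73). Apoc1 fell from 82.6 and 62.7 to 8.54 and 11.7 CPM and Ahsg (fetuin A) from 3.09 and 2.34 to 0.221 and 0.326 CPM. Alb, the albumin gene of the later liver, had no counts in the 4 libraries and was not tested. Among endocytic and lysosomal genes 12 rose and 3 fell (median log2 fold change 0.32), and 14 and 3 did after correction (median 0.48) of 33 tested. The cathepsin genes Ctsh (from 1.10 and 0.995 to 54.4 and 51.5 CPM) and Ctsc (from 11.9 and 11 to 128 and 90.5 CPM) and the cholesterol transporter gene Npc1 (from 24.2 and 28.3 to 144 and 141 CPM) were among those that rose. Tfeb, a transcription factor of lysosomal genes, fell from 60.9 and 57.5 to 1.20 and 6.11 CPM (-4.02 ± 0.65). The count of lysosomal genes that fell was 5 without day 4 replicate 2.

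Summed markers of other lineages did not rise in both day 4 libraries. Summed over fixed marker genes, epiblast and streak markers (4 genes) were at 5.85 and 5.90 CPM at day 0 and 597 and 584 CPM at day 4, and extraembryonic endoderm markers (8 genes) at 59.1 and 61.4 CPM at day 0 and 661 and 675 CPM at day 4. Neural markers (4 genes) summed to 66.8 and 84.2 CPM at day 0 and 4.77 and 10.7 CPM at day 4, nearly all of it from Tubb3. Blood markers (4 genes) summed to 3.24 and 2.98 CPM at day 0 and 2.03 and 2.45 CPM at day 4, with the embryonic globin genes Hbb-bh1 and Hba-x at 0 in all 4 libraries. Endothelial markers (3 genes) summed to 85.1 and 102 CPM at day 0 and 27.4 and 26.6 CPM at day 4, mostly from Pecam1, which ES cells also express, with Cdh5 below 0.5 CPM in each library. Markers of fibroblasts or feeder cells (8 genes) were at 30.7 and 35.8 CPM at day 0 and 24.9 and 37.3 CPM at day 4, with Lum at 0 and Col3a1 and Postn below 0.3 CPM in each library and Dcn at 0 at day 0 and 1.71 and 0.690 CPM at day 4. Cubn and Lama1 made up most of the extraembryonic endoderm sum at day 4, and Lama1, with 57.1 and 59.1 CPM at day 0 and 141 and 195 CPM at day 4, nearly all of it at day 0. The extraembryonic endoderm and epiblast sums were thus higher at day 4 in both libraries, and the fibroblast sum overlapped between the days. ES cell markers (9 genes) fell from 9036 and 7954 to 1734 and 2468 CPM, still the largest sum at day 4. Trophectoderm markers (4 genes) went from 55.8 and 61.4 to 27.9 and 34.6 CPM, mostly from Tfap2c. The sums cover unlike numbers of genes of unlike abundance and do not rank cell types.

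Neural genes moved in both directions, as all genes did (23.8% higher and 19.9% lower). Of 16 tested, 5 rose and 4 fell (median log2 fold change 0.21), and 5 and 4 did after correction (median 0.03), with medians of either sign over the fits. Nes, the intermediate filament nestin of progenitor cells, had 26.6 and 29.2 CPM at day 0 and 132 and 144 CPM at day 4 (2.31 ± 0.41). Tubb3, a tubulin of neurons that these ES cells also transcribed, had 62.8 and 80.3 CPM at day 0 and 2.75 and 9.25 CPM at day 4 (-3.58 ± 0.61), and the adhesion molecule gene Ncam1 fell from 19.2 and 19 to 4.06 and 4.54 CPM (-2.16 ± 0.42). The early neural factor Sox1 had 1.53 and 1.43 CPM at day 0 and 0.571 and 0.345 CPM at day 4 and Pax6 2.44 and 2.36 CPM at day 0 and 1.33 and 1.09 CPM at day 4, the first called lower, the second not. The call of Sox1 was lost without any 1 of the 4 libraries (adjusted p from 0.0637 to 0.172). Sox1 was not called after correction. Surface ectoderm and keratin genes had 2 of 12 lower, Krt42 and Tfap2c, and 0 higher (3 and 1 after correction). In the trophectoderm list 3 rose and 2 fell (median log2 fold change -0.01), and 4 and 1 did after correction (median 0.03) of 14. Those that rose were Eomes, shared with the streak, Cdx2 (from 0 and 0.130 to 1.11 and 1.78 CPM) and Plac1, and Elf5, a defining trophoblast factor, stayed below 0.2 CPM in each library. The call of Plac1 was lost without day 0 replicate 2 or day 4 replicate 1 (adjusted p from 0.0555 to 0.0658). After correction Pax6 was called lower (-1.76). The count of neural genes that rose was 2 without day 0 replicate 1, and that of those that fell was 2 without either day 0 replicate or day 4 replicate 1. The count of trophectoderm genes that fell was 1 without either day 0 replicate or day 4 replicate 1 and 4 without day 4 replicate 2.

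Of 16 blood and endothelial genes tested, 6 rose and 3 fell (median log2 fold change 1.13), and 8 and 3 did after correction (median 2.10). Flt1, a VEGF receptor, had 0.935 and 1.71 CPM at day 0 and 50.6 and 45.8 CPM at day 4 (5.18 ± 0.40). Sox7, an SRY-box factor of endothelium and of parietal endoderm, had 0.288 and 0.108 CPM at day 0 and 8.44 and 8.18 CPM at day 4 (5.39 ± 0.51). Pecam1 (CD31) had 72.6 and 86.8 CPM at day 0 and 22.2 and 22.5 CPM at day 4 (-1.83 ± 0.39). Flt1, Sox7 and Sox17 are transcribed in extraembryonic endoderm too. Among 23 Hox genes tested, 4 rose and 0 fell, a share of rises below that of all genes. These were Hoxb1, Hoxd4, Hoxd8 and Hoxd9, and none was above 0.9 CPM in any of the 4 libraries; Hoxb1 had no counts at day 0 and 0.590 and 0.843 CPM at day 4. The call of Hoxd4 was lost without either day 0 replicate or day 4 replicate 2 (adjusted p from 0.0542 to 0.0959). The call of Hoxd8 was lost without any 1 of the 4 libraries (adjusted p from 0.0597 to 0.239). The call of Hoxd9 was lost without either day 0 replicate (adjusted p from 0.0545 to 0.0588). The count of blood and endothelial genes that fell was 1 without day 0 replicate 2. The count of Hox genes that rose was 1 without day 0 replicate 1 and 2 without day 0 replicate 2 or day 4 replicate 2.

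Among signalling pathways, most Wnt genes tested rose. Of 36 ligands, receptors, antagonists and targets tested, 24 rose and 2 fell (median log2 fold change 1.47), and 25 and 0 did after correction (median 1.63). Of the ligands, Wnt8a had 0.264 and 0.216 CPM at day 0 and 26.4 and 40.3 CPM at day 4 (7.11 ± 0.69), and Rspo3, which strengthens Wnt signals by protecting their receptors, had 0.120 and 0.151 CPM at day 0 and 9.27 and 6.67 CPM at day 4 (5.85 ± 1.07). Both were free of overlap between the days. Of the receptors, Fzd7 rose from 62.9 and 66.6 to 250.2 and 237 CPM and Ror1 from 0.431 and 0.886 to 20.1 and 15.6 CPM. Of the secreted antagonists, Dkk1 had 0 and 0.0432 CPM at day 0 and 9.96 and 10.2 CPM at day 4 and was 443-fold higher (95% counting interval 123 to 3661), and Frzb was 592-fold higher (95% counting interval 164 to 4889.9). Axin2, a negative regulator used as a readout of canonical Wnt signalling, had 4.03 and 5.34 CPM at day 0 and 31.3 and 51.7 CPM at day 4 (3.15 ± 0.51, corrected 3.27). The 2 genes that fell were the ligands Wnt6 (-2.11) and Wnt7b (-1.37), and neither was called after correction. The calls of Wnt6 and Wnt7b were lost without either day 0 replicate or day 4 replicate 1 (adjusted p from 0.0734 to 0.135). The count of Wnt genes that rose was 11 without day 0 replicate 1, and that of those that fell was 0 without either day 0 replicate or day 4 replicate 1.

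FGF ligand genes moved in opposite directions. Of 23 tested, 10 rose and 5 fell (median log2 fold change 0.84), and 10 and 4 did after correction (median 0.84). Fgf4, the main ligand of naive cells, had 346 and 328 CPM at day 0 and 55.0 and 50.6 CPM at day 4 (-2.67 ± 0.30), and Fgf17 fell (-3.17 ± 0.77). Fgf5 and Fgf8, given above, and Fgf10, with 1.41 and 0.908 CPM at day 0 and 15.7 and 9.85 CPM at day 4 (3.46 ± 0.43), rose. The receptor genes Fgfr1 and Fgfr2 rose by 0.95 and 1.6, and the ERK phosphatase genes Dusp4 and Dusp6, feedback targets of the pathway, by 1.85 and 1.78. Other feedback genes, Spry2 (0.62), Spry4 (0.23) and Etv5 (-0.16), did not pass. The call of Fgf17 was lost without day 4 replicate 1 (adjusted p = 0.0526). The call of Fgfr1 was lost without day 0 replicate 1 or day 4 replicate 2 (adjusted p from 0.184 to 0.197). The call of Dusp6 was lost without day 0 replicate 1 (adjusted p = 0.0699). The count of FGF genes that rose was 6 without day 0 replicate 1, and that of those that fell was 3 without day 4 replicate 1.

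In Nodal, activin and BMP signalling 16 rose and 6 fell (median log2 fold change 0.69), and 17 and 5 did after correction (median 0.84) of 38 tested. Among ligands, Bmp2 had 0.120 and 0.0649 CPM at day 0 and 8.26 and 7.99 CPM at day 4 (6.43 ± 0.81), while Inhbb, an activin subunit, had 11.4 and 11.8 CPM at day 0 and 0.295 and 0.651 CPM at day 4 (-4.61 ± 0.93) and Gdf3, a Nodal-related ligand of pluripotent cells, had 91.8 and 84.9 CPM at day 0 and 15.2 and 15.8 CPM at day 4 (-2.51 ± 0.31). Ligand genes thus moved both ways without overlap between the days. Of the inhibitors, Cer1 is given above and Fst (follistatin), which binds activin, had 1.87 and 2.36 CPM at day 0 and 118 and 87.3 CPM at day 4 (5.60 ± 0.68). Lefty1 (-1.56, adjusted p = 0.0516), Lefty2 (-0.67) and Nodal did not pass. The BMP receptor gene Bmpr1a rose by 2.00 ± 0.32, the effector gene Smad3 by 2.21 ± 0.27, and the BMP-responsive homeobox genes Msx1 and Msx2 by 4.70 and 2.51. None of the Id genes, also BMP-responsive, was called higher: Id1 fell (-1.32 ± 0.42), a call absent after correction (-0.27), and Id2, Id3 and Id4 did not pass. The call of Id1 was lost without either day 0 replicate or day 4 replicate 1 (adjusted p from 0.0876 to 0.102). After correction Id4 was called lower (-1.06). The count of Nodal and BMP genes that fell was 3 without either day 0 replicate or day 4 replicate 1.

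Of the other pathways, Notch genes had 6 of 18 higher and 1 lower (6 and 1 after correction), with Notch2 at 18.6 and 18.5 CPM at day 0 and 89.3 and 107 CPM at day 4 (2.40 ± 0.29). Notch3 rose by 1.84 ± 0.43. In Hedgehog signalling 7 rose and 2 fell (median log2 fold change 1.02), and 7 and 3 did after correction (median 1.09) of 13. Ihh, the ligand of visceral endoderm, rose from 0.0959 and 0.151 to 1.55 and 4.79 CPM, the co-receptor gene Gas1 from 1.56 and 1.41 to 9.33 and 9.20 CPM and the transducer gene Smo from 24.9 and 34.9 to 76.5 and 119 CPM, while Shh had no counts in the 4 libraries. Gli1 and Hhip, both direct targets of the pathway, fell from 45.6 and 68.1 to 10.1 and 23.4 CPM and from 2.85 and 2.88 to 0.129 and 0.287 CPM. Ptch1, a receptor gene that is also a direct target, was called higher (1.02 ± 0.30) but not after correction (0.08). These targets were thus called in both directions in the uncorrected fit alone. Among retinoic acid genes 5 rose and 2 fell (median log2 fold change 0.48), and 8 and 1 did after correction (median 0.88) of 17, with the degrading enzyme gene Cyp26a1 and the retinaldehyde reductase gene Dhrs3 (2.74 ± 0.58) higher and the binding protein gene Crabp1 lower (from 37.2 and 29.0 to 2.54 and 3.98 CPM). The call of Notch3 was lost without day 0 replicate 1 (adjusted p = 0.0648). The call of Gli1 was lost without day 0 replicate 2 or day 4 replicate 1 (adjusted p from 0.0777 to 0.0799). The call of Hhip was lost without day 4 replicate 1 (adjusted p = 0.0602). The call of Ptch1 was lost without either day 0 replicate or day 4 replicate 1 (adjusted p from 0.0855 to 0.0946). The count of Notch genes that rose was 2 without either day 0 replicate, and that of those that fell was 0 without either day 0 replicate or day 4 replicate 1 and 2 without day 4 replicate 2. The count of Hedgehog genes that fell was 1 without day 0 replicate 2 and 0 without day 4 replicate 1. The count of retinoic acid genes that fell was 1 without either day 0 replicate or day 4 replicate 1.

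Guidance receptor and ligand genes rose more often than they fell. Eph receptors and ephrins had 7 of 18 higher and 0 lower (11 and 0 after correction). Epha1 had 14.7 and 20.1 CPM at day 0 and 141 and 218 CPM at day 4 (3.37 ± 0.42), and Efnb2 rose from 4.82 and 5.34 to 49.3 and 43.0 CPM, Epha7 from 1.51 and 2.53 to 17.6 and 12.6 CPM and Efna5 from 1.03 and 1.43 to 9.53 and 7.24 CPM. Of 31 semaphorins, plexins, neuropilins, slits, netrins and their receptors tested, 22 rose and 4 fell (median log2 fold change 2.02), and 18 and 4 did after correction (median 1.31). Sema6a had 4.84 and 5.36 CPM at day 0 and 160.2 and 190.3 CPM at day 4 (5.10 ± 0.74, corrected 4.45), Sema5a rose by 3.62 (corrected 2.51) and Slit3 by 3.42 (corrected 3.56). Sema6d had 0.120 and 0 CPM at day 0 and 7.17 and 7.41 CPM at day 4. The neuropilin gene Nrp2 fell from 39.7 and 39.4 to 11.9 and 12.1 CPM, and Sema5b and Sema4a were also lower. The count of Eph and ephrin genes that fell was 1 without day 4 replicate 2. The count of semaphorin and slit genes that rose was 13 without day 0 replicate 1.

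Cadherin and junction genes rose more often than they fell. In the list of cadherins, catenins and junction proteins 11 rose and 1 fell (median log2 fold change 0.55), and 14 and 3 did after correction (median 0.91) of 26. Cdh1 (E-cadherin) had 409.5 and 475 CPM at day 0 and 778 and 868 CPM at day 4 (0.90 ± 0.20, adjusted p = 0.00519). Cdh2 (N-cadherin) had 2.35 and 3.37 CPM at day 0 and 56.9 and 53.6 CPM at day 4 (4.27 ± 0.58), and Cdh11, a cadherin of mesenchyme, 0.671 and 0.476 CPM at day 0 and 23.6 and 18.4 CPM at day 4 (5.19 ± 0.55). All 3 were higher at day 4 with no overlap. The desmosome gene Dsp rose from 23.7 and 26.9 to 114 and 122 CPM and the tight junction gene Tjp1 from 63.2 and 70.7 to 354 and 267 CPM. The claudin genes Cldn6 (1.39 ± 0.40) and Cldn4 (-1.86 ± 0.38) moved in opposite directions. The call of Cdh1 was lost without day 0 replicate 1 (adjusted p = 0.0605). The call of Cldn6 was lost without either day 0 replicate or day 4 replicate 2 (adjusted p from 0.0561 to 0.0893). The count of junction genes that fell was 4 without day 4 replicate 2.

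Of 21 transcription factors and mesenchymal genes of epithelial-mesenchymal transition tested, 6 rose and 3 fell (median log2 fold change -0.12), and 8 and 4 did after correction (median 0.39), the sign of the median depending on the fit. Zeb2, a repressor of E-cadherin, had 0.527 and 0.735 CPM at day 0 and 10.6 and 8.05 CPM at day 4 (3.87 ± 0.66). Vim, the mesenchymal intermediate filament vimentin, had 170.4 and 162 CPM at day 0 and 37.4 and 56.7 CPM at day 4 (-1.82 ± 0.43), a drop in both fits. The matrix protein gene Tgfbi fell from 9.59 and 11.4 to 1.68 and 2.16 CPM. Fn1 (fibronectin, -0.26), Zeb1 (-0.62) and Twist1 (0.35) did not pass. After correction Twist1 was called higher (1.6) and Zeb1 lower (-1.52). The count of EMT genes that rose was 3 without either day 0 replicate or day 4 replicate 2.

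Several basement membrane genes rose. Of 31 matrix genes tested, 14 rose and 1 fell (median log2 fold change 0.83), and 16 and 3 did after correction (median 0.62). Col4a1, a chain of the collagen of basement membranes, had 15.5 and 21.2 CPM at day 0 and 172 and 402 CPM at day 4 (3.97 ± 0.43), and Col4a2, its partner chain, 10.9 and 12.2 CPM at day 0 and 77.9 and 207 CPM at day 4 (3.63 ± 0.48). Both rose without overlap, to levels that differed more than 2-fold between the day 4 replicates. The laminin genes Lama1 and Lamb1 rose by 1.53 ± 0.23 and 1.0 ± 0.23. Fras1 and Frem2, whose proteins form a complex at the epithelial basement membrane, rose from 1.46 and 1.51 to 16.8 and 18.1 CPM and from 16.8 and 20.8 to 99.0 and 107 CPM. Of the integrin receptors 5 rose and 2 fell (median log2 fold change 0.57), and 7 and 2 did after correction (median 0.68) of 15 tested. Itgb7 fell from 31.3 and 34.2 to 1.59 and 2.43 CPM (-4.03 ± 0.56), Itga8 rose from 0.791 and 0.735 to 8.04 and 6.0 CPM and Itgb1, the common beta chain, from 139 and 162 to 391 and 284 CPM. Itgav was called higher (1.47) but not after correction (0.38). Itga6 had 10.9 and 99.9 CPM at day 0 and 162 and 136 CPM at day 4 and did not pass, its day 0 replicates being far apart. The call of Lamb1 was lost without day 0 replicate 1 (adjusted p = 0.0548). The count of matrix genes that rose was 8 without day 0 replicate 1, and that of those that fell was 4 without day 4 replicate 2. The count of integrin genes that fell was 1 without day 0 replicate 1 or day 4 replicate 1.

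Cytoskeletal genes fell more often than they rose in the uncorrected fit and not in the corrected one. Of 36 tested, 7 rose and 15 fell (median log2 fold change -0.57), and 8 and 8 did after correction (median 0.04). The tubulin genes Tubb2a and Tubb2b fell from 238 and 241 to 11.8 and 31.9 CPM and from 606 and 571 to 41.6 and 75.8 CPM (corrected -2.56 and -2.89). The actin-binding thymosin gene Tmsb4x fell from 663 and 387 to 62.7 and 39.1 CPM (corrected -2.80), and the microtubule regulator Stmn2 from 573 and 500.4 to 67.6 and 67.4 CPM (corrected -3.61). These drops were present in both fits. Those of Actb (-0.96), Pfn1 (-1.06) and Tuba1b (-0.64) were not called after correction. Vcl, the junction protein vinculin, rose from 9.54 and 26.4 to 110.5 and 133 CPM (2.76 ± 0.47), and the actin gene Actg1 rose by 0.96 ± 0.26. The calls of Actb, Pfn1 and Tuba1b were lost without either day 0 replicate or day 4 replicate 1 (adjusted p from 0.0798 to 0.208). The call of Actg1 was lost without either day 0 replicate (adjusted p from 0.0585 to 0.0711). The count of cytoskeletal genes that rose was 4 without day 0 replicate 1, and that of those that fell was 8 without day 0 replicate 1.

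Genes of DNA methylation moved in both directions, as all genes did (23.8% higher and 19.9% lower). Of 18 tested, 6 rose and 6 fell (median log2 fold change -0.30), and 5 and 7 did after correction (median -0.47). Dnmt3b rose and its cofactor Dnmt3l fell, as given above, while the maintenance enzyme gene Dnmt1 did not pass (0.02). Zfp57, which protects imprints from demethylation, had 318 and 330.4 CPM at day 0 and 53 and 45.9 CPM at day 4 (-2.71 ± 0.35), and the deaminase gene Apobec1 fell from 19.9 and 20.8 to 3.34 and 3.93 CPM. Tdg, a glycosylase that removes oxidised methylcytosine, rose from 22.3 and 25.6 to 67.8 and 64.9 CPM. Tet1 (-0.36) and Tet2 (-1.02), which oxidise methylcytosine, did not pass in the uncorrected fit and were called lower after correction (-1.56 and -2.17). Tet3, of the same family, had 5.80 and 7.50 CPM at day 0 and 7.6 and 38.3 CPM at day 4 and was called higher (1.79 ± 0.57) but not after correction (1.09). The call of Tet3 was lost without either day 0 replicate or day 4 replicate 2 (adjusted p from 0.0787 to 0.633). 

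The balance of Polycomb and Trithorax genes depended on the correction. Of 30 tested, 10 rose and 3 fell (median log2 fold change 0.42), and 9 and 6 did after correction (median -0.03). Kmt2a (Mll1), an H3K4 methyltransferase, had 25.3 and 27.9 CPM at day 0 and 147 and 136 CPM at day 4 (2.42 ± 0.38, corrected 1.62). Kdm2b, which brings Polycomb complexes to CpG islands, had 27.3 and 38.3 CPM at day 0 and 118 and 169.9 CPM at day 4 (2.13 ± 0.31, corrected 1.62). Both kept their call in each of the 19 fits. The demethylase gene Kdm6a and the PRC1 gene Bmi1 rose by 1.89 and 1.68, while Phf19 and Eed, accessory and core subunits of PRC2, fell (-1.43 and -0.69). The call of Eed was lost without either day 0 replicate or day 4 replicate 2 (adjusted p from 0.0691 to 0.105). Ezh2, the enzyme of PRC2, did not pass uncorrected (-0.49) and was called lower corrected (-1.19). Of 29 genes of the BAF and NuRD remodellers, 9 rose and 3 fell (median log2 fold change 0.17), and 7 and 9 did after correction (median 0.10). The ATPase gene Smarca2 (Brm) rose from 1.25 and 1.25 to 8.54 and 7.20 CPM and Arid2 from 43.7 and 47.5 to 301 and 240.0 CPM. Smarcd3 fell from 24.2 and 20.3 to 2.08 and 2.20 CPM, with 48.2% of its exon length shared with other genes. The count of Polycomb and Trithorax genes that rose was 5 without day 0 replicate 1 and 6 without day 0 replicate 2, and that of those that fell was 1 without either day 0 replicate and 5 without day 4 replicate 2. The count of BAF and NuRD genes that rose was 4 without day 0 replicate 1 and 5 without day 0 replicate 2, and that of those that fell was 1 without either day 0 replicate or day 4 replicate 1 and 5 without day 4 replicate 2.

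Most nuclear genes of oxidative phosphorylation fell, and those encoded in mitochondria rose or did not pass. Of 69 nuclear genes tested, 0 rose and 63 fell (median -1.67), and 1 and 53 did after correction (median -0.98). The median was below 0 in each of the 19 fits, from -1.84 to -0.80. Uqcrq and Uqcr10, small subunits of complex III, fell from 340.0 and 202 to 13.5 and 44.6 CPM (-3.22, corrected -2.65) and from 293 and 192 to 21 and 51.4 CPM (-2.74, corrected -1.55). Uqcr11 of complex III (-2.46) and Ndufa11 of complex I (-2.60) fell too. With Uqcr10 they belong to the shortest decile of genes. Of the 13 protein genes encoded in mitochondria, 4 rose and 0 fell (median log2 fold change 0.49), and 6 and 0 did after correction (median 0.72). The complex I gene mt-Nd4l rose from 26.9 and 48.3 to 299.6 and 184 CPM (2.69 ± 0.34), and mt-Atp8, of the ATP synthase, from 221 and 371 to 947 and 426 CPM. The abundant mt-Co1 (0.68) and mt-Cytb (0.30) did not pass. The call of mt-Atp8 was lost without day 0 replicate 1 or day 4 replicate 1 (adjusted p from 0.163 to 0.34). The count of mitochondrially encoded genes that rose was 1 without day 0 replicate 1 or day 4 replicate 1, and that of those that fell was 1 without day 4 replicate 1.

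Ribosomal-protein genes fell in the uncorrected fit, 80 of 81 lower and 0 higher (median -1.47). After correction 61 were lower and 0 higher (median -0.84). With length taken from the longest basic transcript instead of all exons, 34 were lower and 47 were not called (median -0.57). In all 19 fits 18 kept their call, and the median over the fits lay between -1.75 and -0.57. Rpl36 had 1719 and 869 CPM at day 0 and 37.6 and 316 CPM at day 4 (-2.87 ± 0.85, corrected -1.63), and Rps29 had 1807 and 905 CPM at day 0 and 135 and 347 CPM at day 4 (-2.49 ± 0.49, corrected -1.44). The stalk protein genes Rplp1 and Rplp2 fell (-2.53 and -2.24, corrected -1.28 and -1.58). The share of counts that these transcripts took also separated the WT day 0 libraries from all the others, as given above, and the part of the length trend in this drop was not tested beyond the correction. Ribosomal-protein genes have many processed pseudogenes, which makes their counts uncertain. Of 39 translation factors, 5 rose and 17 fell (median log2 fold change -0.42), and 2 and 20 did after correction (median -0.52). Eif4ebp1, a repressor of the cap-binding factor, fell from 579.7 and 561 to 62.8 and 145 CPM (-2.46 ± 0.41), and the factor genes Eif3k, Eef1d and Eif3g fell too (-1.75, -1.62 and -1.36). The call of Rpl36 was lost without day 0 replicate 1 or day 4 replicate 1 (adjusted p from 0.0529 to 0.104). The calls of Rplp1 and Rplp2 were lost without day 0 replicate 1 (adjusted p from 0.0706 to 0.0718). The count of ribosomal-protein genes that fell was 49 without day 0 replicate 1. The count of translation factor genes that rose was 0 without day 0 replicate 1, 3 without day 0 replicate 2 and 2 without day 4 replicate 1, and that of those that fell was 8 without day 0 replicate 1.

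Amino acid, folate and methyl-donor genes fell more often than they rose in both fits. Of 31 tested, 4 rose and 16 fell (median log2 fold change -0.90), and 3 and 17 did after correction (median -0.58). Tdh, the threonine dehydrogenase on which mouse ES cells rely, had 713 and 669 CPM at day 0 and 71.4 and 101 CPM at day 4 (-3.0 ± 0.55, corrected -2.52). Psph, Psat1 and Phgdh encode the enzymes of serine synthesis, and Psph had 119 and 107 CPM at day 0 and 14.2 and 17.7 CPM at day 4 (-2.83 ± 0.22), Psat1 704 and 714 CPM at day 0 and 174 and 162 CPM at day 4 (-2.08 ± 0.28) and Phgdh a difference of -1.69 ± 0.31. All 3 fell in both fits. Asns, asparagine synthetase, had 980.2 and 893 CPM at day 0 and 179 and 164 CPM at day 4 (-2.45 ± 0.31). Atf4, the transcription factor of the amino acid response that drives several of these genes, fell from 480.2 and 487 to 119 and 141 CPM (-1.90 ± 0.22, corrected -1.15), and Trib3, one of its targets, from 85.7 and 84.7 to 7.02 and 17.2 CPM. Chac1, another target, fell (-2.91) but was not called after correction. The mitochondrial folate enzyme genes Mthfd2 and Shmt2 fell (-1.66 and -1.94). Mat2a, which makes S-adenosylmethionine, rose from 129.5 and 134 to 545 and 387 CPM. The call of Chac1 was lost without day 4 replicate 1 (adjusted p = 0.0896). 

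Glycolysis and glucose transport genes were called less often than all genes before correction (23.8% of all genes rose and 19.9% fell). Of 24 tested, 5 rose and 2 fell (median log2 fold change -0.13), and 8 and 3 did after correction (median 0.15). Pfkfb3, which makes the activator of phosphofructokinase, had 12.3 and 14.8 CPM at day 0 and 56.4 and 50.9 CPM at day 4 (1.99 ± 0.31), the lactate transporter gene Slc16a1 rose from 124 and 119.6 to 359 and 282 CPM, and the glucose transporter gene Slc2a3 rose by 1.0 ± 0.18. Pfkp, a phosphofructokinase, fell (-0.94 ± 0.31). Gapdh (-0.65), Ldha (0.18) and Pkm (-0.20) did not pass. Cholesterol synthesis and uptake genes were divided, 7 of 24 higher and 6 lower (4 and 4 after correction), shares near those of all genes. Mvd and Pmvk of the mevalonate pathway fell (-1.40 and -1.27), calls that the correction ended. The call of Pfkp was lost without any 1 of the 4 libraries (adjusted p from 0.0818 to 0.126). The call of Mvd was lost without either day 0 replicate (adjusted p from 0.062 to 0.0853). The count of glycolysis genes that rose was 3 without either day 0 replicate, and that of those that fell was 0 without either day 0 replicate or day 4 replicate 1 and 8 without day 4 replicate 2. The count of cholesterol genes that rose was 1 without day 0 replicate 1 and 2 without day 0 replicate 2 or day 4 replicate 1, and that of those that fell was 1 without day 0 replicate 1.

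**Figure D3:**
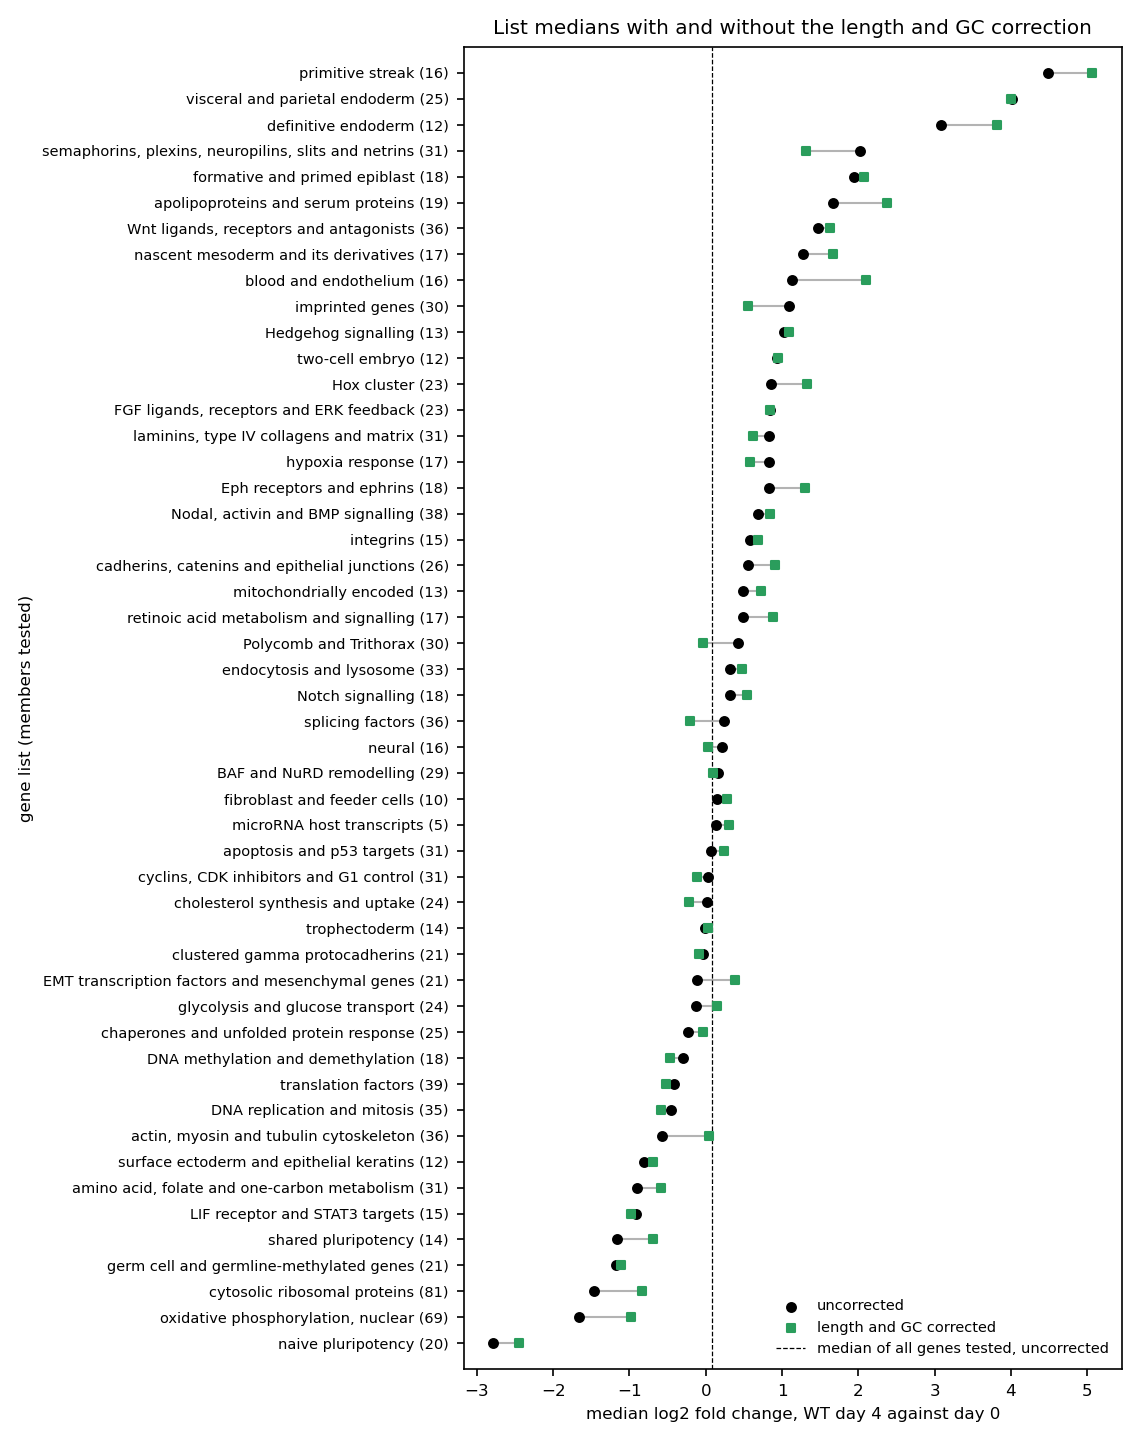
Median log2 fold change of WT day 4 against day 0 for each of the 50 gene lists, uncorrected (black) and length and GC corrected (green), with the dashed line at the median of all genes. Visceral and parietal endoderm and primitive streak lie at the right and naive pluripotency at the left with both points. Over the 19 fits the median was above 0 throughout for 23 lists, below 0 throughout for 12 and of either sign for 15.

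Proliferation genes fell in part. Of 35 genes of DNA replication and mitosis tested, 3 rose and 14 fell (median log2 fold change -0.45), and 1 and 19 did after correction (median -0.59). Tk1, thymidine kinase, had 109.7 and 100.3 CPM at day 0 and 21.4 and 36.5 CPM at day 4 (-1.86 ± 0.26). Cdt1, which licenses replication origins, had 328 and 317 CPM at day 0 and 64.2 and 147 CPM at day 4 (-1.61 ± 0.37). Pold1 (DNA polymerase delta) and the helicase subunit gene Gins1 fell (-1.31 ± 0.49 and -1.25 ± 0.23). Mki67 (0.73), Top2a (0.24) and Ccnb1 (-0.08) did not pass. The genes called higher were the mitotic genes Bub1, Cenpe and Cenpf, and after correction Bub1 alone was. Of 31 cyclins, inhibitors and G1 regulators, 8 rose and 9 fell (median log2 fold change 0.03), and 6 and 6 did after correction (median -0.11). Ccnd2 (cyclin D2) rose from 3.67 and 2.83 to 19.8 and 17.1 CPM (2.51 ± 0.43), Mycl from 13.2 and 18 to 60.5 and 69.8 CPM and E2f3 from 20.5 and 23.3 to 77.3 and 61.4 CPM, and the locus of the inhibitors p16 and p19, Cdkn2a, fell from 11.4 and 10.2 to 1.31 and 4.14 CPM. The calls of Pold1 and Cenpe were lost without either day 0 replicate or day 4 replicate 1 (adjusted p from 0.0737 to 0.154). The calls of E2f3, Bub1 and Cenpf were lost without day 0 replicate 1 or day 4 replicate 1 (adjusted p from 0.0562 to 0.139). After correction Ccnb1 and Top2a were called lower (-0.42 and -0.72). The count of replication and mitosis genes that rose was 0 without day 0 replicate 1 or day 4 replicate 1 and 5 without day 4 replicate 2, and that of those that fell was 7 without either day 0 replicate. The count of cyclin and G1 genes that rose was 4 without day 0 replicate 1 or day 4 replicate 1 and 5 without day 0 replicate 2, and that of those that fell was 5 without either day 0 replicate.

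Of 31 apoptosis genes and p53 targets, 11 rose and 4 fell (median log2 fold change 0.07), and 7 and 3 did after correction (median 0.24). Casp8, the initiator caspase of death receptors, had 1.70 and 1.56 CPM at day 0 and 9.35 and 7.64 CPM at day 4 (2.38 ± 0.46), Pmaip1 (Noxa) 22.9 and 25.8 CPM at day 0 and 129 and 95.3 CPM at day 4 (2.20 ± 0.40) and Apaf1, the apoptosome scaffold, 26.1 and 29.4 CPM at day 0 and 125 and 98.0 CPM at day 4 (2.01 ± 0.22). These 3 rose in both fits without overlap. Bax fell (-1.89 ± 0.33, -0.60 after correction). Of 17 hypoxia response genes tested, 11 rose and 0 fell (median log2 fold change 0.83), and 8 and 0 did after correction (median 0.58). Hif1a, the oxygen-regulated transcription factor, had 66.7 and 70.1 CPM at day 0 and 246 and 151 CPM at day 4 (1.54 ± 0.26, corrected 0.82). Egln1 and Egln3, the prolyl hydroxylases that mark it for destruction, rose by 1.17 ± 0.22 and 1.09 ± 0.33. Vegfa (-0.21) and Car9 (-0.55), well-known targets, did not pass, and Ndrg1 rose by 1.01 but was not called after correction. Among 25 chaperones and unfolded protein response genes 3 rose and 6 fell (median log2 fold change -0.23), and 2 and 5 did after correction (median -0.03). Hspb1 (Hsp27) fell from 497 and 417 to 24.8 and 65.3 CPM (-3.34 ± 0.45, corrected -1.94). The call of Egln3 was lost without either day 0 replicate or day 4 replicate 1 (adjusted p from 0.0728 to 0.12). The call of Ndrg1 was lost without day 0 replicate 1 or day 4 replicate 1 (adjusted p from 0.0502 to 0.12). The count of apoptosis genes that rose was 5 without day 0 replicate 1, 6 without day 0 replicate 2 and 4 without day 4 replicate 1, and that of those that fell was 1 without day 0 replicate 1 and 2 without day 0 replicate 2 or day 4 replicate 1. The count of hypoxia genes that rose was 3 without day 0 replicate 1, 4 without day 0 replicate 2 and 5 without day 4 replicate 1, and that of those that fell was 1 without day 0 replicate 2. The count of chaperone genes that rose was 0 without day 0 replicate 1 or day 4 replicate 1, 1 without day 0 replicate 2 and 6 without day 4 replicate 2, and that of those that fell was 2 without day 0 replicate 1.

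Splicing factor genes reversed their balance with the correction. Of 36 tested, 10 rose and 2 fell (median log2 fold change 0.24), and 5 and 11 did after correction (median -0.20). Esrp1, an epithelial splicing regulator, had 64.4 and 55.8 CPM at day 0 and 189 and 167 CPM at day 4 (1.57 ± 0.23, corrected 1.19), and kept its call in each of the 19 fits. Ptbp2, a regulator of neural exons, rose from 26.5 and 30.2 to 133 and 87.2 CPM (1.96, corrected 0.78), Celf1 by 1.23 (corrected 0.47), and U2af1, of the 3′ splice site factor, fell from 432 and 323 to 160.4 and 153 CPM. Sf3b1, a core spliceosome gene, was the most abundant gene called in opposite directions by the uncorrected fit and by the correction that kept the original scaling. It had 388 and 484 CPM at day 0 and 865 and 615 CPM at day 4 (0.76 ± 0.23, adjusted p = 0.0206), against -0.39 when the libraries were rescaled after correction, which did not pass. Tmpo, of the nuclear lamina, had 249 and 248 CPM at day 0 and 521 and 336 CPM at day 4 (0.79 ± 0.24), against -0.22, and Bclaf1, a nuclear regulator of transcription, 187 and 201 CPM at day 0 and 510.4 and 338 CPM at day 4 (1.13 ± 0.25), against -0.22. In all 3 both day 4 libraries had higher CPM than both day 0 libraries, and the sign of the fitted difference turned with the correction. The call of Sf3b1 was lost without day 0 replicate 1 or day 4 replicate 1 (adjusted p from 0.157 to 0.232). The call of Tmpo was lost without either day 0 replicate or day 4 replicate 1 (adjusted p from 0.0922 to 0.286). The call of Bclaf1 was lost without day 4 replicate 1 (adjusted p = 0.0648). The count of splicing factor genes that rose was 4 without day 0 replicate 1 or day 4 replicate 1 and 5 without day 0 replicate 2, and that of those that fell was 4 without day 4 replicate 2.

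Germline genes fell or did not pass. Of 21 tested, 0 rose and 11 fell (median log2 fold change -1.18), and 0 and 10 did after correction (median -1.12). Ooep, of the maternal complex of the egg, had 184 and 136 CPM at day 0 and 15 and 12.9 CPM at day 4 (-3.52 ± 0.42), and Hormad1, a meiotic chromosome axis protein, had 44.9 and 49.7 CPM at day 0 and 8.31 and 5.04 CPM at day 4 (-2.82 ± 0.36). Khdc3 fell from 28.6 and 35 to 0.903 and 0.824 CPM, with 38.5% of its exon length shared with other genes, and Rhox9 from 7.72 and 5.19 to 1.03 and 1.36 CPM, with paralogs close by. Ddx4 (0.50), Dazl (-0.56) and Sycp3 (-0.63), germ cell genes that were transcribed at day 0, did not pass. Of 12 genes of the early cleavage embryo (the two-cell list) tested, 3 rose and 0 fell (4 and 0 after correction), and these belong to families of close paralogs. The count of germline genes that rose was 1 without day 4 replicate 2, and that of those that fell was 7 without day 0 replicate 1 or day 4 replicate 2. The count of cleavage embryo genes that rose was 0 without either day 0 replicate or day 4 replicate 1.

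Imprinted genes rose more often than they fell. Of 30 tested, 15 rose and 4 fell (median log2 fold change 1.09), and 13 and 4 did after correction (median 0.56). Igf2, the growth factor expressed from the paternal copy, had 6.16 and 6.01 CPM at day 0 and 49.7 and 48.3 CPM at day 4 (3.01 ± 0.45), and 64.5% of its exon length is shared with other annotated genes. H19, the noncoding RNA expressed from the maternal copy of the same domain, had 15.4 and 14.7 CPM at day 0 and 80.0 and 104 CPM at day 4 (2.61 ± 0.39). Both genes of the domain rose, and both kept their call in each of the 19 fits. Magel2, of the Prader-Willi domain, had 0.527 and 0.259 CPM at day 0 and 16.6 and 32.4 CPM at day 4 (5.96 ± 0.87), and Peg3 rose from 40.8 and 46.1 to 285 and 229 CPM (2.56, corrected 1.58). Phlda2, a growth-restraining gene, fell from 78.4 and 75.2 to 3.47 and 16.5 CPM (-2.95 ± 0.74). Among microRNA host transcripts, Mir17hg, the host of the miR-17-92 cluster, rose from 12.7 and 14.9 to 77.2 and 45.2 CPM (2.14 ± 0.34). The count of imprinted genes that rose was 9 without day 0 replicate 1 or day 4 replicate 1.

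The response of wild-type cells was set beside those of the 2 knockouts, which share no library with it. The knockout lines limit this comparison: Hprt, which is disrupted in E14Tg2a, had 212 and 203 CPM in S4KO at day 0 and 171 and 169 CPM at day 4, and below 1 CPM in each WT and S2/3DKO library, so that a difference of line and the knockout cannot be told apart for S4KO. Of the 8157 genes called in WT, 80.3% had the same sign of change in S2/3DKO and 89.6% in S4KO. The same-sign share over all genes tested was not computed, and the response correlated with exon length in WT and both knockouts. Agreement of sign is thus given without a background. The share called in the same direction was 11.5% in S2/3DKO and 16.9% in S4KO. Of all genes tested 7.03% were called in S2/3DKO and 8.9% in S4KO, and 15.5% and 16% after correction. The test of the difference itself called 1140 genes for S2/3DKO (6.1%), the WT change being the higher of the 2 in 797 and the lower in 343, and 1247 after correction. For S4KO it called 28 (0.15%), 26 and 2, and 153 after correction. Both counts turned on single libraries: without WT day 0 replicate 1, WT day 0 replicate 2, WT day 4 replicate 1 and WT day 4 replicate 2 the test called 28, 137, 86 and 3887 genes for S2/3DKO and 14, 28, 16 and 2008 for S4KO. The count over all genes that an unadjusted p below 0.05 gives was 5389 for S2/3DKO and 4015 for S4KO.

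Streak genes were among those whose change differed. For S2/3DKO the test called 9 of 16 streak genes tested, all with the WT change higher. This count was 2, 5 and 6 without WT day 0 replicate 1, WT day 0 replicate 2 and WT day 4 replicate 1. Mixl1 had 0.137 and 0.165 CPM at day 0 and 0.116 and 0 CPM at day 4 in S2/3DKO, against 56.7 and 51.8 CPM in WT at day 4 (difference of the log2 fold changes 8.19 ± 1.24, adjusted p = 0.011). T reached 0.281 and 0.367 CPM in S2/3DKO at day 4 and 0.415 and 3.39 CPM in S4KO, against 103 and 124 CPM in WT. Lhx1 reached 0.215 and 0.165 CPM in S2/3DKO at day 4. These 3 genes thus stayed below 0.4 CPM in both S2/3DKO day 4 libraries. They were named for their large WT change, which the difference contains, so a higher change in WT was favoured in advance. The T difference was 7.27 ± 1.58 (adjusted p = 0.0311) for S2/3DKO and did not pass for S4KO (adjusted p = 0.138). The difference of Mixl1 for S2/3DKO was not called without WT day 0 replicate 1 (adjusted p = 0.0721), and that of T was called without WT day 4 replicate 2 but not without any of the other 3 libraries (adjusted p from 0.0769 to 0.117). 

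The change of some visceral endoderm genes differed between WT and each knockout. The test called 9 of 25 for S2/3DKO and 6 for S4KO, all with the WT change higher. Without WT day 0 replicate 1, WT day 0 replicate 2, WT day 4 replicate 1 and WT day 4 replicate 2 the counts were 2, 3, 5 and 9 for S2/3DKO and 3, 2, 4 and 11 for S4KO. Cubn went from 4.52 and 12.7 to 64.9 and 35 CPM in S2/3DKO and from 1.82 and 0.634 to 13.7 and 15 CPM in S4KO, against 372 and 296 CPM in WT at day 4. For S4KO the Cubn difference was 5.46 ± 0.80 (adjusted p = 0.023) and that of Apob 6.96 ± 1.02 (adjusted p = 0.023). Both S4KO differences were called without WT day 4 replicate 2 but not without any of the other 3 libraries (adjusted p from 0.0671 to 0.194). Cubn rose in both knockouts, and its day 4 levels there lay below those of WT in every library. Cubn and Apob were also named for their large WT change, which favours a higher change in WT.

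The median change of naive pluripotency genes was below 0 in all 3 genotypes, -2.78 in WT, -1.71 in S2/3DKO and -1.34 in S4KO, with 11 and 6 of 20 called lower in the knockouts. The difference between responses was called for 1 of these 20 in S2/3DKO and 0 in S4KO. Ribosomal-protein genes had medians of -1.47, -0.27 and -0.11, and nuclear oxidative phosphorylation genes -1.67, -0.55 and -0.50. After correction the WT medians were -0.84 and -0.98. Their differences between responses were called for 5 of 81 and 8 of 69 genes for S2/3DKO and 0 for S4KO. The correlation of the response with log2 exon length over 18682 genes was 0.29 in WT, 0.11 in S2/3DKO and 0.17 in S4KO, and 0.03 in WT after correction, a description over genes that share their libraries.

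**Figure D4:**
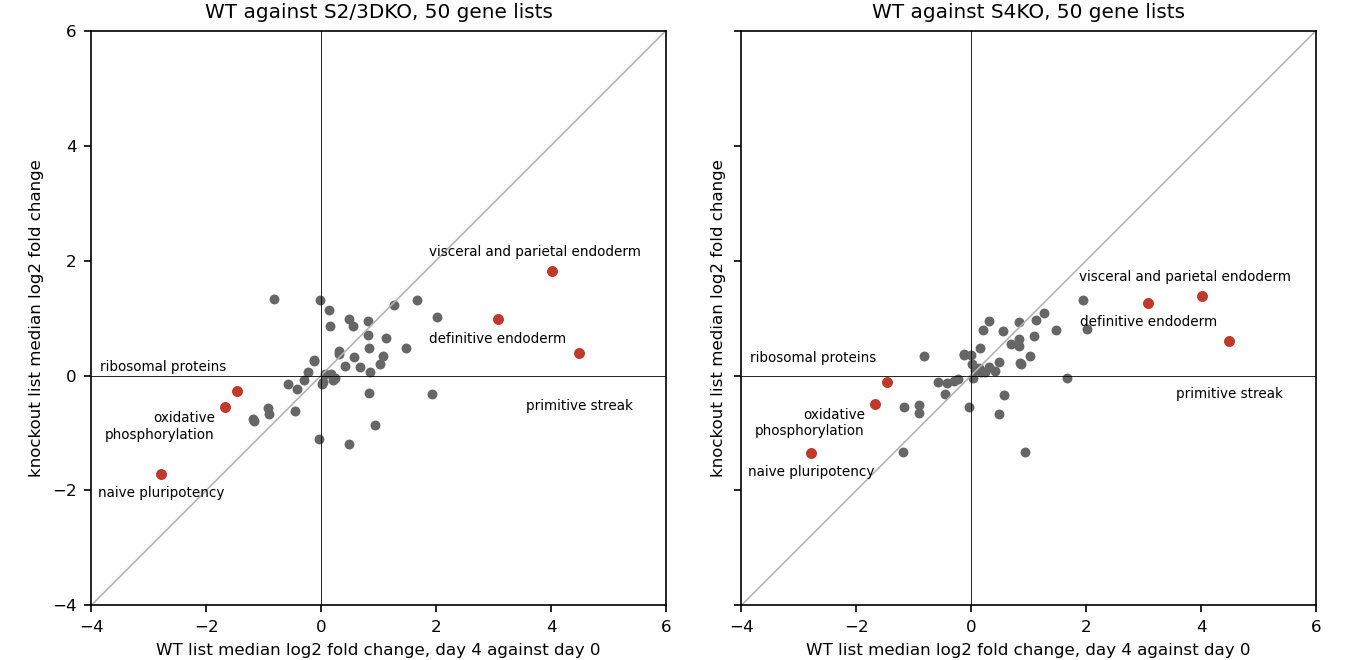
Median log2 fold change of each gene list at day 4 against day 0 in WT (horizontal axis) against the same in S2/3DKO (left) and S4KO (right), with the diagonal where they are equal. Primitive streak lies at 4.49 in WT and at 0.38 and 0.60 in the knockouts, and naive pluripotency lies below 0 in all 3.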

How the data were processed

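RNA-seq (TruSeq RNA v2, per the labels' protocols) was analysed in 12 libraries. Whole-number counts per Ensembl gene were deposited by the authors for 32285 gene IDs, of which 32235 matched a symbol. FPKM values per gene name were also deposited by the authors and used in alternatives only. Per the submitters' processing notes the build was mm10, and Cufflinks, StringTie and DESeq2 are named without roles or versions. The counting tool was not given in the sources used here. In the table the value 2 is more frequent than 1 (6989 against 4966), so intervals and floors, which cover counting error only, take the deposited counts as they are.

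The test was edgeR 4.0.16 (R 4.3.3; TMM scaling, filterByExpr, quasi-likelihood F test, Benjamini-Hochberg adjustment), fitted on all 12 libraries with 1 coefficient per group, so that the 6 groups share 1 estimate of the spread with 6 residual degrees of freedom. CPM uses TMM-scaled library sizes. Exon length is the union of annotated exons, GC content that of the longest transcript (GENCODE M21). The correction fits each library's log2 CPM by natural splines (5 degrees of freedom each) of length and GC content and enters the fit as offsets. The version quoted in the text as corrected recomputes TMM after it and was chosen after seeing the data, as was a version using the longest basic transcript. The planned version keeps the original scaling. Other alternatives were length alone, a block for replicate number, the 4 WT libraries alone, RLE scaling, other filters, DESeq2 1.42.0, limma 3.58.1 on log2(FPKM + 1) or log2(FPKM + 0.1), and leaving out each WT library. The statistics were tested on simulated data. Tables were made in Python 3.11.15 (numpy 2.4.6, pandas 2.3.3) and figures in matplotlib 3.10.9, with scipy 1.17.1 for intervals.

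Genes were named by rule. These were the 10 largest rises and 10 largest drops called in the uncorrected and planned corrected fits, without overlap and with at least 50 CPM in the higher group, and the 5 largest gains and losses in CPM. The rule also took the 3 most abundant genes called in opposite directions, up to 4 called members of each list with the largest change and at least 5 CPM, members that a list's name turns on, and up to 3 of the first 20 whose change differed most from each knockout. Some further list members were named after their values were seen. The 50 lists, their members and these rules were chosen with earlier results of these data known. A floor of 3 counts over the group stands for 0.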

Additional observations from a re-analysis of the deposited data

Results flagged for a closer look

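These values stood out because the wild-type response differed from that of a knockout by a test of the difference itself (edgeR's interaction contrast, n = 2 libraries in each of 4 groups). For S2/3DKO the difference passed for 1140 genes, and for S4KO for 28, of which 26 had the higher change in WT. Among the 20 genes with the largest wild-type changes, the difference in log2 fold change between WT and S2/3DKO was 13.86 for Lhx1, 8.19 for Mixl1 and 7.27 for T, in which both WT libraries rose from near 0 and both S2/3DKO libraries stayed below 0.4 CPM at day 4. The Lhx1 value rests on 0 counts at WT day 0, depends on the prior count of the fit and is no estimate of size. Between WT and S4KO the difference was 6.96 for Apob and 5.46 for Cubn. These genes were named for their large WT change, which the difference contains. A higher change in WT was thus favoured in advance. Whether the parental line, the length trend of the WT day 0 libraries or the Smad genes moved with these differences was not tested, and Hprt separated S4KO from the other 2 genotypes.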

How the results depend on the processing

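The count of 8157 genes was 6534 with an absolute log2 fold change of at least 1 and stayed between 6995 and 8961 over the other alternatives that kept all libraries. Among 185 named genes tracked, 130 were called in every alternative and 3 reversed. Leaving out 1 WT library (values in brackets: day 0 replicates 1 and 2, then day 4) gave 4080 to 8042 calls (4793, 5712, 4929 and 5947 with the correction), 2131 to 4216 of them higher (1612, 2035, 1852 and 2311) and 1949 to 3826 lower (3077 to 3677). The lowest uncorrected values came without WT day 0 replicate 1, and the cause was not tested. A lone library is taken to vary like the other groups. The correction that kept the original scaling called 3277 genes higher and 4830 lower, 40.4% higher, against 54.5% uncorrected.

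The difference between WT and S2/3DKO, 1140 genes, became 2549 with no filter and 3227 with DESeq2, and 28 to 3887 when 1 WT library was left out (75, 624, 106 and 889 with the correction). That between WT and S4KO, 28 genes, became 47 with RLE scaling, 61 with at least 1 CPM in 2 libraries, 109 with the correction by the longest basic transcript, 153 with TMM recomputed, 176 with the original scaling, 862 with no filter and 1533 with DESeq2. It was 14 to 2008 when 1 WT library was left out (15, 143, 17 and 225 with the correction). The causes were not tested.

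The labels do not say whether replicate numbers mark pairs. Replicate deviations correlated over genes between the days by 0.064 in WT, which cannot decide it with 2 replicates. A replicate block gave 7997 calls, 4302 higher and 3695 lower, and with the correction 7967, 3192 and 4775. With the block the differences numbered 928 for S2/3DKO (1227 with the correction) and 24 for S4KO (99 with the correction).

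Sf3b1 reversed from 0.76 to -0.47 with the longest basic transcript, -0.39 with TMM recomputed, -0.57 with the original scaling, -0.27 with length alone and -0.57 with the replicate block and the correction, and to -0.66, -0.46, -0.57 and -0.56 with the correction and 1 library left out. Under the same settings but the first, Tmpo turned to -0.22, -0.41, -0.24 and -0.41, and to -0.34, -0.46, -0.57 and -0.25 with 1 library left out. Bclaf1 turned to -0.093, -0.22, -0.41, -0.069 and -0.41, and to -0.39, -0.40, -0.38 and -0.41 with 1 library left out. By construction these corrections remove length and GC trends. Depth was not varied, and what it limits was not tested.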

Other observations

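Chromosomes differed in their median change. Genes of the X chromosome, of which wild-type E14Tg2a cells carry a single copy, had a median log2 fold change of 0.43 over 530 genes tested, with 39.8% higher and 18.3% lower, and 0.22 after correction. Those of chromosome 7 had a median of -0.29 over 1129 genes and those of chromosome 17 of -0.25 over 713 genes, each -0.17 after correction. Chromosome 1 moved from 0.35 to -0.01 with the correction. These are descriptions with no test, and genes of a chromosome share its base composition.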
